A study of Gossypium barbadense and Gossypium hirsutum with 4 samples.

Results

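The data described here are the islands of CENH3 enrichment of upland cotton, Gossypium hirsutum, a cultivated allotetraploid whose A and D subgenomes have 13 chromosomes each. Every island of the deposited G. hirsutum list was used, 88971 of the 156610 islands deposited for this species and Gossypium barbadense together, and all 26 chromosomes are described, numbered A01–A13 in one subgenome and D01–D13 in the other. The 2 groups compared were chromatin recovered with a CENH3 antibody and an input labelled as having no antibody, with 1 library a side. Both came from leaf at 4 weeks after planting, from nuclei cut with micrococcal nuclease (MNase), an enzyme that digests the DNA between nucleosomes. The list is named for TM_1, and the labels say nothing of how many plants gave the tissue. With no replicates there was no test of any difference. Ratios carry 95% exact binomial (Clopper-Pearson) intervals. These reflect the number of reads counted and not the spread between libraries. Any copies made by PCR that were left in the counts would count as separate reads.

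CENH3 is the form of histone H3 found in the nucleosomes of the active centromere, the place where the kinetochore is built and where spindle fibres attach when a cell divides. In plants its position is set by chromatin rather than by one conserved DNA sequence, and centromeric DNA is often rich in satellite repeats and retrotransposons. CENH3 chromatin immunoprecipitation therefore marks the centromere on an assembled chromosome, as far as the assembly holds the sequence and the reads can be placed on it.

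An island is a region that the authors' peak caller joined from nearby windows. As a whole it was listed as holding more ChIP reads than input reads after scaling for library size. The strength of an island is given as its scaled ratio, ChIP reads over input reads (input below 3 set to 3) times 1.20, the ratio of library sizes contained in the authors' deposited fold. The 88971 islands held 6132203 ChIP reads and 3522063 input reads. These sums are reads inside islands and not the depth of the libraries, which was not used here. The median scaled ratio was 2.17 (interquartile range 1.79 to 2.81). A ratio of 2 or more was reached by 54087 islands (60.8%), so most of the list was enriched only a few times over input. A ratio of 4 or more was reached by 9.75% (8678 islands), of 6 or more by 4.26% (3793 islands), of 8 or more by 2.66% (2364 islands) and of 12 or more by 1% (892 islands).

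The first question was where along each chromosome the strong islands lie. Islands of ratio 6 or more, called strong here, were chained where neighbours lay at most 200 kb apart, and the chain with the most islands was taken as the core of the chromosome. On 24 of the 26 chromosomes a single core of 16 to 125 strong islands stood out. These cores spanned a median of 1.09 Mb (range 0.431 to 1.85 Mb), and their ratio over all islands inside the span, weak ones included, lay between 7.48 and 10.5. D02 and D08 were the exceptions, with chains of 3 and 4 strong islands. The next largest chain held a median of 3.50 strong islands over the 24 chromosomes, against a median of 74.5 in the core. On D04 it held 11 against 25. By the rule that a core must have at least 2 times the islands of the next chain, 25 chromosomes passed, D08 with 4 against 2 and D02 not, with 3 against 2. Of the 26, 22 passed with gaps of up to 100 kb, and 23 with a seed ratio of 8 or at least 40 ChIP reads. Under these 3 settings D02 and D08 were thus not the only chromosomes that could have failed. With a seed ratio of 4 or gaps of up to 400 kb, 24 passed. Since the cores were placed with the same ratios, their enrichment over the rest of the chromosome is a description.

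**Figure D1:**
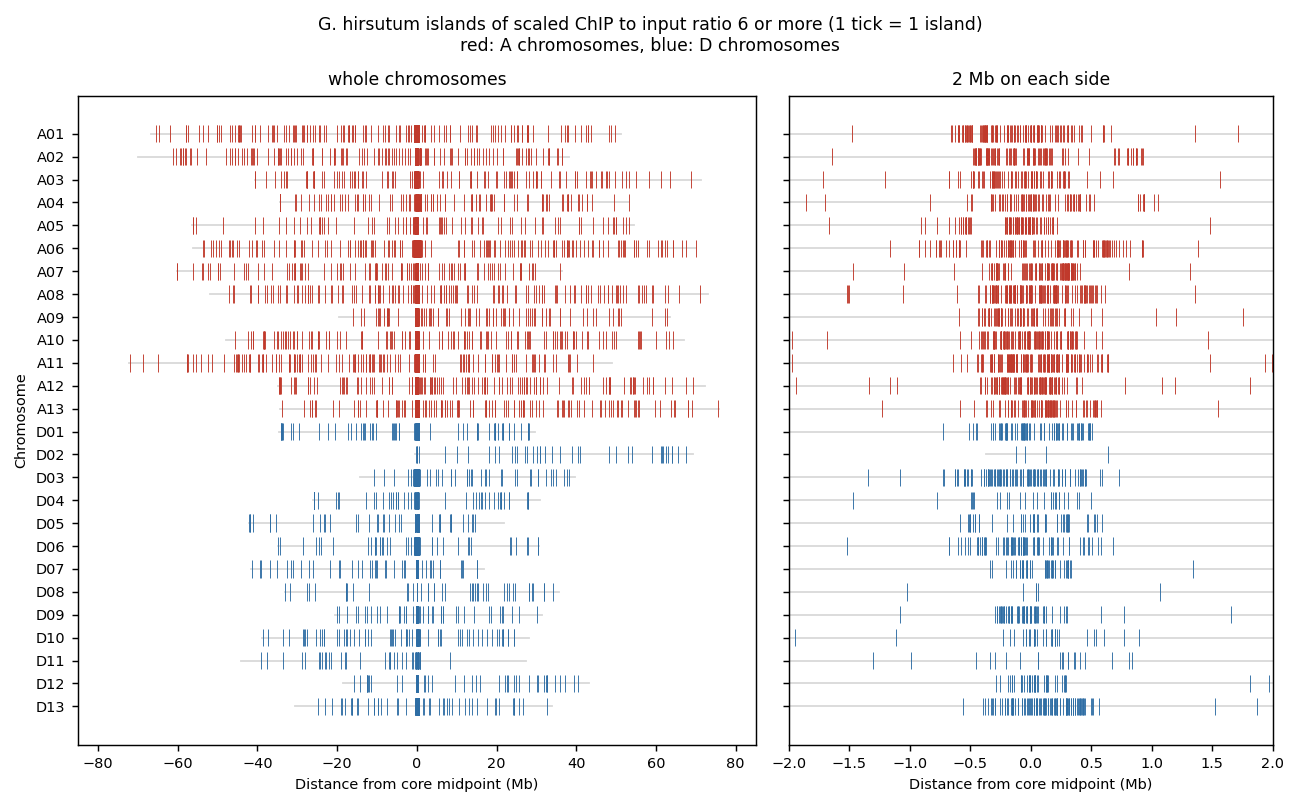
Position of each of the 3793 islands of scaled ratio 6 or more on the 26 chromosomes (rows), as the distance in Mb from the midpoint of the core, over whole chromosomes (left) and within 2 Mb (right). Each tick is 1 island and the grey line is the mapped chromosome; groups of 16 (D11) to 125 (A11) strong islands stand at the midpoint of 24 chromosomes, against 3 on D02 and 4 on D08.

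Among the A chromosomes, the cores with the most strong islands were on A11, A06, A08, A01 and A10. A11 had 125 strong islands from 71.48 to 72.76 Mb, with a core ratio of 9.55 (95% interval 9.09 to 10). A06 had the widest core of the species, 1.85 Mb from 55.12 to 56.97 Mb, with 123 strong islands and a ratio of 8.09 (7.70 to 8.51). A08 had 119 strong islands from 51.25 to 52.47 Mb and a ratio of 10.4 (9.84 to 10.9). Strong islands on A06 were thus spread over more sequence than on A08, at 66.4 against 97.6 per Mb of core. A01 had 112 strong islands from 66.11 to 67.44 Mb (ratio 8.97, 8.45 to 9.54). A10 had 100 strong islands from 47.34 to 48.51 Mb, and its ratio of 10.5 (9.85 to 11.1) was the highest point value of the 26 cores. Its interval overlaps those of A04, A05, A07, A08, A11 and A12 and of 5 D cores (D01, D05, D07, D10 and D13), so the order at the top is not resolved by the read counts.

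The other A chromosomes had between 56 and 92 strong islands in the core. A07 had 92 in 0.81 Mb, from 59.73 to 60.54 Mb, with a ratio of 9.47 (8.94 to 10). A12 had 87 in 0.84 Mb, from 34.35 to 35.19 Mb, with a ratio of 9.41 (8.85 to 10). A13 (33.68 to 34.85 Mb) and A02 (69.36 to 70.32 Mb) had 79 each, with ratios of 8.31 (7.85 to 8.82) and 8.26 (7.77 to 8.78). These 2 cores were alike in strength, and lower than the cores of A08 and A10 by more than their counting intervals. A03 had 75 strong islands from 39.96 to 41.32 Mb and the lowest core ratio of the A chromosomes, 7.80 (7.34 to 8.30). A09 had 70 from 18.95 to 20.13 Mb (8.35, 7.87 to 8.87). Relative to the mapped length, the A09 core lay closest to a chromosome end among the 24, at 23.5%. One arm was thus 3.25 times as long as the other.

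A04 and A05 had cores broken by a gap. On A04, 67 strong islands lay between 33.87 and 34.92 Mb (ratio 10.1, 9.31 to 10.9), and a second chain of 9 lay 0.355 Mb beyond, from 35.28 to 35.45 Mb, with a ratio of 5.72 (4.97 to 6.61). On A05 the core had 56 strong islands in only 0.43 Mb, from 56.21 to 56.64 Mb (ratio 10.3, 9.56 to 11.1), and a second chain of 18 lay 0.280 Mb before it, from 55.52 to 55.93 Mb, with a ratio of 6.50 (5.82 to 7.27). The A05 core was the most densely filled with strong islands of all 26, at 130 per Mb. A02 had a second chain of 16 strong islands 0.213 Mb beyond its core, at 70.53 to 70.77 Mb, with a ratio of 8.42 (7.44 to 9.56), within the counting interval of the core itself. With gaps of up to 400 kb allowed, the A05 chains joined and the midpoint of the core moved from 56.4 to 56.1 Mb.

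The D chromosomes were more varied. D03 had the largest D core, 101 strong islands from 13.49 to 14.95 Mb, with a ratio of 7.90 (7.47 to 8.35), and D13 followed with 95 from 30.04 to 31.17 Mb (9.34, 8.79 to 9.95). D01 had 74 strong islands from 33.95 to 34.97 Mb and the highest point value among the D ratios, 10.3 (9.53 to 11.2). D06 had 72 from 34.24 to 35.60 Mb (7.90, 7.40 to 8.44). These 4 D cores were of the size range seen on the A chromosomes. D09 had 52 strong islands in 0.59 Mb, from 20.31 to 20.90 Mb (7.96, 7.47 to 8.50), and islands covered 29.0% of that span, the highest share of the 26 cores.

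The remaining D cores were thin. D05 had 45 strong islands from 41.49 to 42.66 Mb (ratio 9.19, 8.25 to 10.2), D07 had 41 from 41.23 to 41.90 Mb (9.94, 8.94 to 11.1) and D12 had 37 from 18.14 to 18.72 Mb (8.06, 7.37 to 8.82). D04 had 25 from 25.43 to 26.43 Mb (7.62, 6.76 to 8.62). D10 had 24 from 38.56 to 39.03 Mb (10.2, 8.75 to 11.9) and a second chain of 6 from 39.26 to 39.69 Mb. D11 had the fewest of the 24, 16 strong islands from 43.59 to 44.49 Mb (7.48, 6.31 to 8.91), which covered with their weaker neighbours 2.28% of the span. A thin core was not always a weak one. The intervals of D10 and D07 overlap that of A11, the core with the most strong islands, although they held 1622 and 3211 ChIP reads against 14506 on A11.

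**Figure D2:**
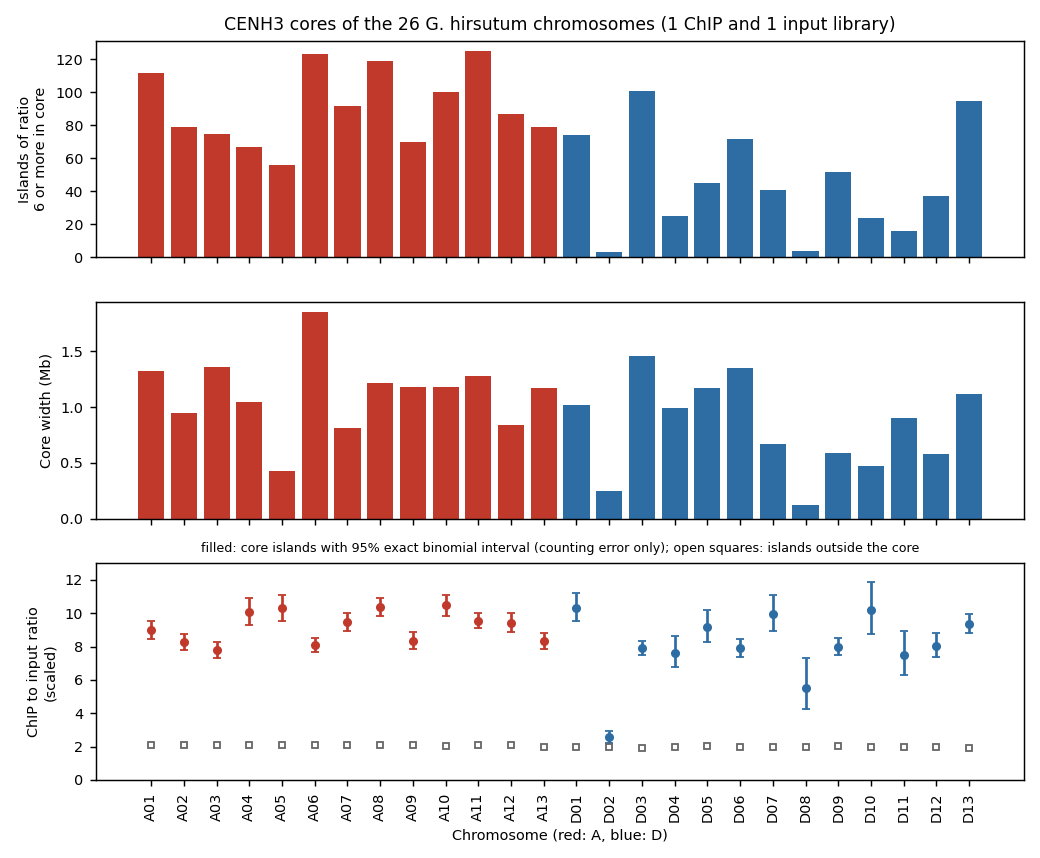
Number of strong islands in the core, width of the core in Mb, and scaled ChIP to input ratio of the core islands (filled points, bars are 95% exact binomial intervals that cover counting error only) and of the islands outside the core (open squares) for the 26 chromosomes. Core ratios of 24 chromosomes lie between 7.48 and 10.5 and ratios outside the core between 1.93 and 2.12; D02 (2.56) and D08 (5.54) stand below the other cores.

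Chromosomes were paired by number. In cotton, A02 and A03 have exchanged arms, as have A04 and A05, so pairs 2, 3, 4 and 5 are not plain homoeologues over their whole length. The A chromosome had more strong islands in the core in 11 of 13 pairs, with a median of 87 against 41 over the 13 chromosomes of each subgenome, and the D chromosome had more in pairs 3 and 13. The shares went the other way, with 44.7% of the strong islands of A chromosomes in cores against 51.5% on D, and 4.07% of A islands strong against 4.78% on D. The A core was also the wider in 11 of 13 pairs, the exceptions being pairs 3 and 5. Without pairs 2 and 8, which hold D02 and D08, the counts were 9 of 11 for both. The ratio of the core was less uneven, being higher on A in 9 of 13 pairs and in 7 of 11 without those pairs. Summed over all 13 A cores the ratio was 9.12 (8.97 to 9.27). The D cores gave 8.32 (8.12 to 8.52), and 8.57 (8.37 to 8.78) without D02 and D08. Chromosomes are not replicates of a subgenome, and with 1 library a side the A to D difference was not tested.

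On D02 no chain was comparable in size to the cores of the 24 chromosomes. Its largest chain, 3 strong islands from 0.25 to 0.50 Mb near the start of the chromosome, had a ratio of 2.56 (2.22 to 2.95). The next, a pair of strong islands, lay at 31.21 to 31.39 Mb. The chromosome had 39 strong islands in all, of which 36 lay outside the chain. The place chosen on D02 changed under 5 settings. With islands of at least 40 ChIP reads its midpoint was at 34.3 Mb, and with a seed ratio of 4 at 25.1 Mb. A seed ratio of 8 and the chain of most reads above input both placed it at 31.3 Mb. Gaps of up to 100 kb placed it at 64.4 Mb. On D08, the chain of 4 strong islands at 32.99 to 33.12 Mb had a ratio of 5.54 (4.25 to 7.31), on 313 ChIP and 68 input reads, and with a seed ratio of 4 the midpoint was at 15.3 Mb.

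The G. barbadense list, named for Hai7124, came from leaf ChIP and input libraries of the same age and kind, 1 of each. Treated by the same rule on its own assembly, with its own library ratio of 1.64, it had a core on all 26 chromosomes, with 376 strong islands on D02 and 416 on D08. Its D02 and D08 cores lay at 47.6% and 39.7% of the chromosome. The same relative places in G. hirsutum are at 33.2 Mb on D02 and 27.3 Mb on D08, and these windows were looked at after the values of both chromosomes had been seen. In a 4 Mb window around the first there were 81 islands, 4 of them strong, with a ratio of 2.15 (2.05 to 2.26). Around the second there were 12 islands and no strong one, with a ratio of 2.44 (2.12 to 2.82). On the other 24 chromosomes such windows held at least 59 islands and at least 21 strong ones, with ratios of 2.53 to 5.48.

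The D08 window was nearly free of islands of any strength. The longest stretch without an island on this chromosome, 1191 kb, ran from 26546401 to 27737400, across the place that corresponds to the G. barbadense core. It was followed, after 1 island, by the second longest, 1183 kb from 27738801 to 28921400. On D02 the longest stretch without an island in the window was 411 kb. A stretch without an island has no value in the list, which does not show that CENH3 is absent there.

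On 24 chromosomes the relative positions of the cores in the 2 species differed by under 5% of chromosome length. The median of these differences was 0.525%, 17 were within 1%, and D04 differed most, by 2.56%. With a seed ratio of 8, at least 40 ChIP reads or the chain of most reads above input, 25 chromosomes were within 5%. The G. hirsutum cores were thinner on every chromosome. They held fewer strong islands on all 26 (a median of 73 against 347), and their ratio was lower on all 26 (a median of 8.66 against 18.3). These values include the chains of D02 and D08, which lay at other relative places than the G. barbadense cores. On the other 24 the highest G. hirsutum values were 125 strong islands and a ratio of 10.5. The lowest of any G. barbadense core were 203 and 13.1. In the G. barbadense list 13539 islands (20%) were strong, against 4.26% here. Each species had 1 ChIP library, so library and species cannot be told apart.

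Inside the cores of the 24 chromosomes, enrichment was highest in the middle. Each core was cut into 5 equal parts. Strong islands numbered 50.2, 79.0, 93.1, 79.5 and 51.6 per Mb from the first to the last part, and the ratio over all islands in each part was 7.64 (7.39 to 7.89), 10.2 (9.92 to 10.6), 10.7 (10.4 to 11), 9.40 (9.11 to 9.69) and 6.82 (6.62 to 7.03). The ratio was lower in the outer parts by more than the counting error, although the edges themselves were set by the chaining rule. Islands were close together, with a median gap of 4.40 kb between neighbours in the cores (interquartile range 1.20 to 13.2 kb), against 12.2 kb (4.00 to 29.6 kb) elsewhere. Even so, islands covered a median of 14.8% of the span of a core, and the longest gap inside a core was between 28.2 kb (A05) and 189 kb (D04).

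The core was poor in weakly enriched islands. These were not used to place it, but they are defined by the same ratio, so their scarcity there may follow in part from the rule. Islands of ratio below 2 had a density of 0.292 per Mb within 0.5 Mb of the core midpoint on the 24 chromosomes. Their density was 3.92 per Mb at 0.5 to 1 Mb, 11.3 per Mb at 1 to 2 Mb and 16.2 per Mb at 2 to 5 Mb. Islands of ratio 2 to 6 numbered 12.9 per Mb within 0.5 Mb and 24.9 per Mb at 2 to 5 Mb. Those of ratio 4 to 6 went the other way, at 8.71 per Mb within 0.5 Mb against 2.35 per Mb at 2 to 5 Mb. Of the 34884 islands of ratio below 2 in the list, 8 lay in a core.

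Strong islands fell from 67.3 per Mb within 0.5 Mb of the midpoint to 8.75 per Mb at 0.5 to 1 Mb, 1.17 per Mb at 1 to 2 Mb and 0.972 per Mb at 2 to 5 Mb, and then stayed level, at 0.979 per Mb at 5 to 10 Mb and 0.874 per Mb beyond 20 Mb. The median ratio of all islands went from 10.2 within 0.5 Mb to 3.54, 2.30 and 2.18 over the next 3 distances. Pooled over these 24 chromosomes, most of the excess of strong islands thus lay within 1 Mb of the midpoint. At 1 to 2 Mb the A chromosomes had 1.62 per Mb (42 islands) against 1.15 (90 islands) at 2 to 5 Mb. The 11 D chromosomes had 0.636 (14 islands) against 0.758 (50 islands). These counts are small, and the difference between the subgenomes was not tested.

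**Figure D3:**
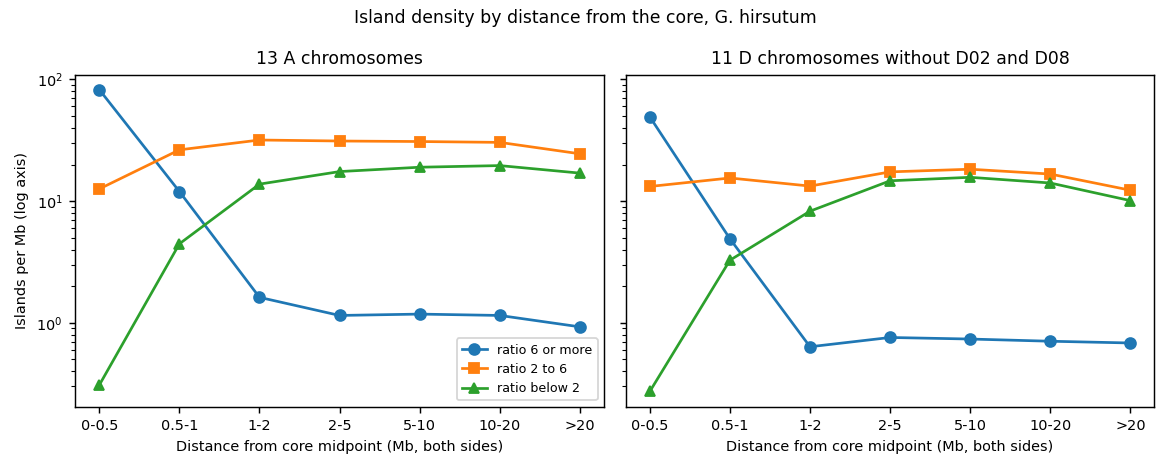
Islands per Mb (log axis) of scaled ratio 6 or more, 2 to 6 and below 2, by distance in Mb from the core midpoint, on the 13 A chromosomes (left) and the 11 D chromosomes other than D02 and D08 (right). Strong islands fall from 82.5 to 1.62 per Mb on A and from 49.3 to 0.636 per Mb on D between the first and the third distance, while islands of ratio below 2 rise from 0.308 to 13.8 and from 0.273 to 8.27 per Mb.

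Core islands differed from the rest more in input reads than in ChIP reads. Per kb of island, core islands had a median of 51.7 raw ChIP reads against 32.0 in islands outside the cores, which is 1.62 times as many. They had a median of 5.92 raw input reads per kb against 17.7, so that islands outside had 2.99 times as many. Both differences held on all 26 chromosomes: core medians were 35.8 to 67.2 ChIP reads per kb against 30.4 to 33.0 outside, and 5 to 15.6 input reads per kb against 17.0 to 18.1 outside. The groups do not overlap for either library, and the core medians above 7.5 input reads per kb were those of D02 (15.6) and D08 (10). Since cores were placed by the ratio of these reads, some difference of this kind follows from the rule. Every island in the list also held at least 20 ChIP reads, while input reads had no such minimum. That the difference was larger in input than in ChIP reads may therefore follow in part from how islands were listed. Strong islands outside the cores were close in ChIP density to strong islands inside and higher in input density, with medians of 56.2 against 54.5 ChIP reads and 7.50 against 5 input reads per kb. The G. barbadense list had the same order between core and outside, with 70.0 against 29.6 ChIP reads per kb and 5 against 20.8 input reads per kb.

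**Figure D4:**
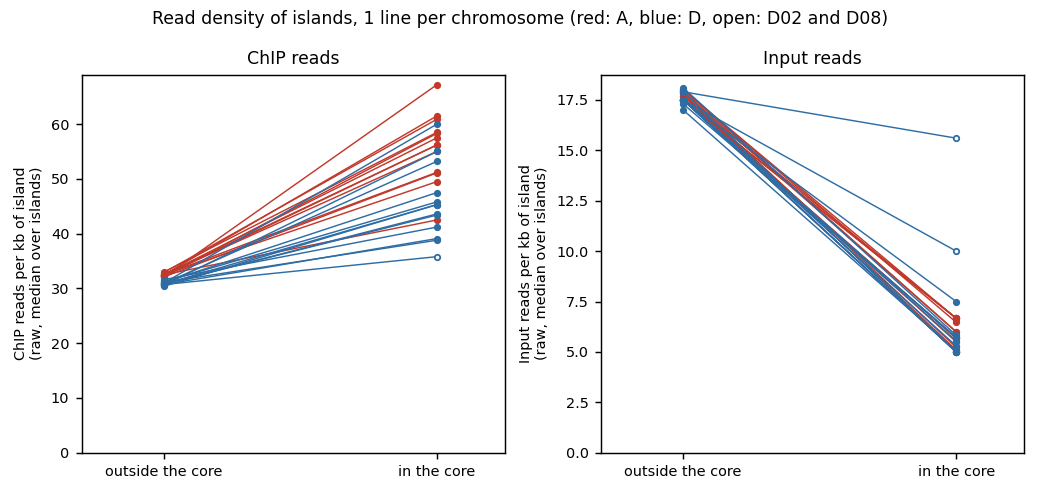
Median raw ChIP reads (left) and input reads (right) per kb of island, outside and inside the core, with 1 line per chromosome. ChIP medians rise from 30.4 to 33.0 outside to 35.8 to 67.2 inside, and input medians fall from 17.0 to 18.1 outside to 5 to 15.6 inside, the 2 least changed in input being D02 and D08 (open points).

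The single most enriched island of a chromosome lay in the core on 23 of 26 chromosomes, the others being D02, D08 and D11. On A13 it was an island of 2.60 kb at 34342801 to 34345400 with 156 ChIP and 4 input reads, a ratio of 47.0 (95% interval 18.0 to 174). On A11 it was at 72220201 to 72221800, with 136 ChIP and 4 input reads (40.9, 15.6 to 152). On A08 it was at 52000401 to 52001200, with 100 ChIP reads and no input read. Its ratio was 40.1 with the input set to the floor of 3 reads, and the lower 95% bound as counted was 32. On D09 it was at 20641001 to 20643600, with 99 ChIP and 3 input reads (39.7, 13.2 to 196). The intervals show that 1 island, with so few input reads, does not rank these chromosomes. On D11 the island of highest ratio, at 44850401 to 44851200 with 50 ChIP reads and no input read, lay 0.356 Mb from the core. Its ratio was 20.1 at the same floor, with a lower 95% bound of 15.7 as counted.

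Of the 3793 strong islands, 1773 lay in the cores (46.7%) and 2020 did not. The cores made up 1.13% of the mapped length, and held 2.41% of all islands. Strong islands were used to place the cores, so their share there follows in part from the rule. The share rises with the ratio: 5.24% of islands of ratio 4 to 6 were in a core, 22.9% of those of 6 to 8, 49.0% of those of 8 to 12 and 81.2% of those of 12 or more. Among the 1790 strong islands with at least 40 ChIP reads the share was 66.4%. The strong islands outside were shorter and held fewer reads. Their median length was 600 bp (interquartile range 400 to 1000 bp) against 1200 bp (600 to 2000 bp) in the cores, and their median ChIP count was 33 against 51 reads. A length of 2 kb or more was reached by 474 strong islands in the cores (26.7%) and by 58 outside (2.87%).

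Outside the cores most chains of strong islands had a single member. They formed 1607 chains, of which 1317 (82.0%) were a single island, 229 were a pair, 54 had 3 or 4 members and 7 had 5 or more. Of those 7, the chains on A02, A05 and D10 and 1 of the 2 on A04 lay within 0.5 Mb of the core, the D10 chain with a ratio of 15.9 (8.82 to 31.3) on 158 ChIP and 12 input reads. The other 3 lay near the start of a chromosome. D04 had 11 strong islands from 0.07 to 0.20 Mb, with a ratio of 8.10 (6.43 to 10.3) on 565 ChIP and 84 input reads, which overlaps the interval of its core. A04 had 7 from 0.09 to 0.19 Mb (3.38, 3.04 to 3.75) and D01 had 5 from 0.30 to 0.53 Mb (4.06, 3.47 to 4.76). The ratios of the A04 and D01 chains are below those of their cores.

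More than 5 Mb from a core, the islands of highest scaled ratio among those with at least 40 ChIP reads were on A10 (22.9), D07 (21.3) and A07 (19.3), with input below 3 set to 3. They lay at 75890401 to 75891200 on A10 (57 ChIP and 2 input reads, as counted a ratio of 34.3, 95% interval 9.07 to 290), at 2559601 to 2560000 on D07 (53 and 2 reads, 31.9, 8.41 to 270) and at 86043001 to 86044200 on A07 (48 and 2 reads, 28.9, 7.57 to 245). The order depends on the floor. As counted, an island on D08, chosen after its values were seen, with 40 ChIP reads and 1 input read (57797601 to 57798200) had a ratio of 48.2 (8.16 to 1949), and all these intervals overlap. In all, 501 islands so far from a core had at least 40 ChIP reads and a ratio of 6 or more, 380 of them (75.8%) on A chromosomes, which held 73.1% of all islands in the list. The others among the 10 of highest ratio were on A04, A06, A11, A01, D02, A05 and A08, with 41 to 44 ChIP reads each and at most 3 input reads.

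More than 5 Mb from the core, the A chromosomes had 44.9 ± 3 islands per Mb (SD over 13 chromosomes) and the D chromosomes 28.6 ± 2.59, with A denser in all 13 pairs by 1.48 to 1.71 times. Strong islands followed the same order, at 0.993 ± 0.127 per Mb on A and 0.679 ± 0.165 on D, again with A denser in 13 pairs. The pair ratio for strong islands ranged more widely, from 1.07 to 2.91, the highest being pair 11. As a share of the islands there, strong ones were 2.21 ± 0.230% on A and 2.38 ± 0.536% on D, with A higher in 5 pairs and D in 8. The means of the subgenomes lay further apart than the SD over chromosomes in islands per Mb, but not in the share of strong islands. Chromosomes are not replicates of a subgenome, so this is a description, and neither difference was tested. The median input reads per kb of these islands was close, at 17.8 ± 0.193 on A and 17.6 ± 0.234 on D.

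**Figure D5:**
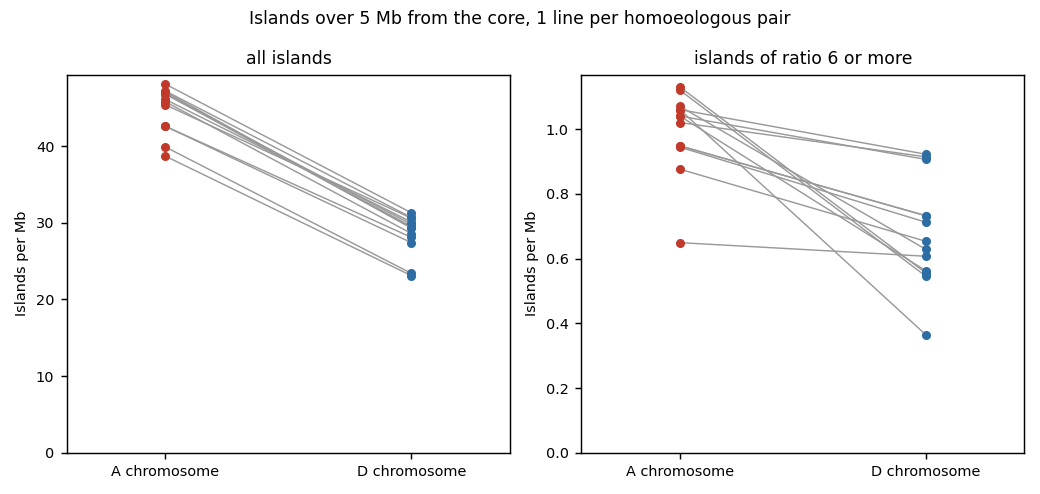
Islands per Mb more than 5 Mb from the core for all islands (left) and islands of scaled ratio 6 or more (right), with 1 line for each of the 13 pairs by number. All lines fall from the A to the D chromosome, from a mean of 44.9 to 28.6 islands per Mb and from 0.993 to 0.679 strong islands per Mb.

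The edges of several cores coincided with sequence without any island. On D01, D04, D06, D07 and D12 the longest stretch without an island on the whole chromosome began at the base after the end of the core. It measured 946 kb on D01, 1669 kb on D04, 928 kb on D06, 1001 kb on D07 and 808 kb on D12, against a median of 608 kb for the longest stretch over the 26 chromosomes. On a further 4 chromosomes, A02 (1120 kb), A03 (600 kb), D10 (447 kb) and D13 (617 kb), the longest stretch lay within 1 Mb of the core. In 8 of these 9 it lay on the side of higher coordinates. A core ends where no strong island follows within 200 kb, so a core edge always borders a gap in strong islands, but not one free of weak islands. Whether the cores of D01, D04, D06, D07 and D12 continue into these stretches cannot be told from the list.

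The first island of each chromosome was of another kind. On all 26 chromosomes the first island started at base 1. These islands were 10.2 to 41.4 kb long, held 3369 to 10150 ChIP reads each and had ratios of only 1.11 to 1.44. Their input reads were dense, at 180 to 434 per kb (median 267), against a median of 17.5 per kb over all islands. The last islands of the chromosomes were unlike them, with a median of 40.5 ChIP reads and 25.9 input reads per kb, and 1 of 26, on A09, with 1000 or more ChIP reads (2608). The first islands together held 2.31% of the ChIP reads and 3.76% of the input reads of the list. They carried many ChIP reads with little enrichment, the reverse of the core islands, which held 2.88% of the ChIP reads and 0.682% of the input reads.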

How the data were processed

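CENH3 ChIP and input DNA from leaf were sequenced with 1 library a side. Per the submitters' processing notes, Trimmomatic, Bowtie2 and SICER were used; versions and the genome build are not given in the sources used here. Its name shows that the deposited list was made with windows of 200 bp, gaps of 400 bp, a false discovery rate of 0.01 and that it carries the tag uniq. The deposited list has no header and was read in SICER's usual column order. The authors deposited raw ChIP and input read counts per island, a p-value, a false discovery rate (q-value) and a fold, which is a linear ratio. The deposited fold equalled ChIP over input counts times 1.20 for islands with input reads. Positions are on the list's own assembly, counted from 1. No genome of that build was used, so no sequence or annotation is given.

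Islands of scaled ratio 6 or more were chained over gaps of up to 200 kb, and the chain with the most islands was the core. Ratios of regions are summed ChIP over summed input counts times 1.20. Medians were computed in Python 3.11.15 with pandas 2.3.3 and intervals with SciPy 1.17.1. The core search was run on a simulated list with a planted core on each of 26 chromosomes. The core found held the planted midpoint on all 26. Every planted core was given more islands than the strong ones in the chains of D02, D08, D10 and D11. The simulation therefore does not bear on such thin cores, and widths were not compared. The rule, the regions named and the exclusion of D02 and D08 were chosen with earlier results of these data known. Regions named individually are the cores, the island of highest ratio of a core (the 4 highest in full), chains of 5 or more outside cores, and the 10 islands of highest ratio with at least 40 ChIP reads over 5 Mb from a core. The 10 islands with most reads and the 10 longest were also listed, and a few are named. Alternatives were the input floor, the false discovery rate, a minimum of reads, the seed ratio, the gap and the choice of chain.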

Additional observations from a re-analysis of the deposited data

How the results depend on the processing

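With 1 library a side there was no replicate to leave out, and no paired analysis was possible because each group had a single library. Under the 6 settings that changed the seed islands or the chaining, the midpoint of the core stayed inside its main span on the 24 chromosomes other than D02 and D08 in all but 2 of 144 placements, A05 and D10 with gaps of up to 400 kb. The D02 midpoint left its site in 5 settings and that of D08 in 2. A denser set of islands on A than on D chromosomes was found in every pair under each setting tried. The seed ratio, the gap and the choice of chain only shift the stretch left out around the core, so they could hardly change this. It also held at a false discovery rate of at most 1e-05 and with at least 40 ChIP reads. Beyond 10 Mb from the core, for islands of ratio 4 or more and by share of length covered, A was again denser in 13 pairs. Choosing the chain of most reads above input left the summary values within their limits. An input floor of 1 read could not change them, since every island held at least 20 ChIP reads, and a false discovery rate of at most 1e-05 removed no strong island, so neither bears on where the cores lie.

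Requiring at least 40 ChIP reads left 4338 islands of ratio 4 or more, 1790 of 6 or more and 1145 of 8 or more. The cores then held 1177 strong islands, 65.8% of them, with a pooled core ratio of 9.06 against 8.86, and there were 1081 strong islands within 0.5 Mb of the core midpoints and 71 at 5 to 10 Mb. Seeding cores at a ratio of 4 gave a median width of 1.30 Mb, a pooled ratio of 6.91, a share of 25.1% and 810 seed islands at 5 to 10 Mb. Seeding at a ratio of 8 gave a ratio of 9.36, a share of 60.6% and 106 islands at 5 to 10 Mb. Gaps of up to 100 kb gave a ratio of 9.22 and a share of 44.5%, and gaps of up to 400 kb a ratio of 7.79 and a share of 48.4%. Over strong islands alone the pooled core ratio was 11. Leaving out D02 and D08, an alternative chosen after seeing the data, gave a median width of 1.09 Mb, a pooled core ratio of 8.95 and a share of 47.6%. Why the other values moved was not tested. Few input reads limit the ratio of a single island: 30.5% of strong core islands had fewer than 3.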

Other observations

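Islands with very dense input were not seen in the cores, but few islands of any kind were. Of the 177 islands with 100 or more input reads per kb, none was in a core, against 2.41% of all islands. Their absence follows in part from the rule, since cores were placed by a high ratio of ChIP to input. The 177 islands had a median ratio of 1.46 and a highest ratio of 3.30. They held 5.55% of the ChIP reads and 8.19% of the input reads of the list, and were found on all 26 chromosomes. Of the 281 islands with no input read, 226 (80.4%) were in a core, against 46.7% of all strong islands. All 281 were strong and so helped to place the cores, and this share follows in part from the rule. Such islands had a median length of 400 bp.

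The list held 155 islands of 10 kb or more, with a median ratio of 2.01. The 3 longest, on A06, A10 and A12, started at base 1, with 192 to 282 input reads per kb and ratios of 1.23 to 1.33. Several of the next longest had an input density near the median of all islands, 17.5 per kb. On D05, islands of 28.8 kb (48480001 to 48508800) and 28.6 kb (48597601 to 48626200) had ratios of 2.71 (95% interval 2.42 to 3.04) and 2.65 (2.37 to 2.98), with 15.6 and 15.7 input reads per kb. On D12, islands of 24 kb (21148801 to 21172800) and 27.4 kb (21210401 to 21237800), 2.43 and 2.49 Mb from the core, had ratios of 2.21 (1.99 to 2.45) and 2.72 (2.44 to 3.03). These islands were picked by length after their values were seen.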
